A study of Mus musculus with 8 samples.

Results

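Colony-stimulating factor and TGF-beta signalling was followed through 9 genes: the ligands Csf1, Il34 and Tgfb1, and the receptors Csf1r, Csf3r, Csf2ra, Csf2rb, Tgfbr1 and Tgfbr2. They were taken by name, as growth factor genes and receptors with known roles in microglia, the macrophages of brain tissue; no cut on values was used, but the list was drawn up with earlier results of these data known. TPM (a level per transcript length, scaled to the same total in each library) and estimated counts were summed over the RefSeq transcripts of each symbol, which gave 9 of the 20692 genes measured. All 9 passed the filter on low counts and were tested among 11328 genes.

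The 8 libraries came from unchallenged male mice, 1 mouse per library, and held about 1000 sorted td-Tomato+ cells from the central amygdala of both sides. The PKCd group (n = 4) carried PKC delta-type::Cre and the SST group (n = 4) carried SST::Cre. Both groups carried the same reporter, Rosa::loxP-STOP-loxP-td-Tomato, in which Cre removes a stop and switches on the red fluorescent protein, so a cell is labelled by the activity of the Cre driver. PKCd mice were 9 weeks old (PKCd 1 and 2) or 18 weeks old (PKCd 3 and 4), and SST mice were 8 weeks old (SST 1 and 2) or 20 weeks old (SST 3 and 4). The question for these genes was how ligands and receptors compare within each population, and whether either differed between the populations.

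CSF1 and IL-34 are secreted proteins of unlike sequence that bind the same receptor tyrosine kinase, CSF1R, on which microglia depend for survival. IL-34 is made in the brain mainly by neurons, and CSF1 mainly by glia. Csf2ra and Csf2rb encode the alpha and the shared beta chain of the GM-CSF receptor, and Csf3r encodes the G-CSF receptor, both known from myeloid cells. TGF-beta 1 binds the type II receptor Tgfbr2, which then activates the type I receptor Tgfbr1, and this signal maintains the gene programme of adult microglia.

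Depth ran from 964361 to 2522749 estimated counts in the older mice and from 10316149 to 18242496 in the younger mice, so age class and depth cannot be told apart. Where no count was found, up to 3 counts remain possible, equal to 0.164 CPM (counts scaled to the library total) at the greatest depth and to 3.11 CPM at the least. Such limits, and the intervals given later, cover counting error only. Prkcd, the gene whose promoter names the PKCd driver, lay between 106.5 and 226 TPM in PKCd libraries and between 0 and 30.2 TPM in SST libraries. Sst lay between 116 and 296 TPM in SST libraries and between 0.209 and 223 TPM in PKCd libraries, where PKCd 2 was the high one; without PKCd 2, Csf1r and Csf3r were still the members called. Summed TPM of 9 measured neuron markers was 121 to 576 in PKCd and 125 to 556 in SST libraries. Summed TPM of 12 microglial markers, a list that does not hold Csf1r, was 29162 to 51413 in PKCd and 498 to 6464 in SST libraries. The microglial sum exceeded the neuron sum in each of the 8 libraries, although the drivers name neuron populations.

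Il34 was the only ligand whose groups stood apart, with more in SST libraries. Its TPM was 23.2, 5.497, 28.0 and 28.4 in PKCd 1 to 4, and 47.5, 74.7, 352 and 61.4 in SST 1 to 4. The lowest SST library lay above the highest PKCd library, and SST 3 lay far above the other SST libraries. The means were 21.3 ± 10.8 and 134 ± 146 TPM (SD, n = 4 each), a ratio of 6.29 in favour of SST. In edgeR's quasi-likelihood test the log2 fold change, PKCd minus SST throughout, was -2.41 ± 0.77 SE with a Benjamini-Hochberg adjusted p of 0.416, so the difference did not pass. DESeq2 gave it an adjusted p of 0.0281. Without SST 3 the ratio of means was 2.88 (61.2 ± 13.6 TPM, SD, n = 3, in SST) and the log2 fold change -1.74 (edgeR adjusted p 0.92). Of all tested genes, 3.05% had PKCd values wholly below SST values, and Il34 was the 1 member that did. In bulk samples, fewer cells of a type and less RNA per cell cannot be told apart, for this and each later value. Whether reads were counted by strand is not stated in the labels or headers, and the antisense genes Gm15894 and Gm15895 lie within or across the Il34 locus on chromosome 8 (110741829 to 110805949, GRCm38.p6), so reads of either could be counted in Il34.

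Csf1, the other ligand of CSF1R, had overlapping groups and, in fold terms, the widest range among the ligands. It stood at 12.5, 31.8, 1.63 and 52.1 TPM in PKCd 1 to 4, and at 0.335, 66.1, 26.9 and 16.8 TPM in SST 1 to 4. Each group held 1 library near the floor: PKCd 3 rested on 2 counts and SST 1 on 9 counts. The means were 24.5 ± 22.2 and 27.5 ± 27.9 TPM (SD, n = 4 each). The log2 fold change was -0.03 ± 1.28 SE (edgeR adjusted p 0.998), an SE many times the size of the estimate.

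Tgfb1, the TGF-beta ligand, stood at 34.9, 9.66, 13.7 and 27.8 TPM in PKCd 1 to 4, and at 0.985, 5.98, 16.2 and 1.99 TPM in SST 1 to 4. SST 3 lay above PKCd 2 and PKCd 3, so the groups overlapped. Mean levels were 21.5 ± 11.8 and 6.28 ± 6.94 TPM (SD, n = 4 each), with a log2 fold change of 2.09 ± 1.42 SE (edgeR adjusted p 0.870).

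Csf1r was the most abundant of the 9 genes in PKCd libraries, and Csf3r showed the steadiest difference. Csf1r, on chromosome 18 (61105572 to 61131139), stood at 1351, 961, 2686 and 1442 TPM in PKCd 1 to 4, and at 65.1, 100.1, 26.7 and 4.43 TPM in SST 1 to 4. Every PKCd library lay above every SST library. The log2 fold change was 5.49 ± 0.92 SE (edgeR adjusted p 0.0344), so Csf1r was higher in PKCd libraries. The call ended in 7 of 8 fits that left out 1 library (all but that without PKCd 2), where the adjusted p went up to 0.215.

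Csf3r, on chromosome 4 (126023441 to 126044975), stood at 96.4, 71.5, 133 and 78.1 TPM in PKCd 1 to 4, and at 1.38, 1.62, 3.55 and 1.88 TPM in SST 1 to 4. The PKCd values lay close together, and the lowest of them was far above the highest SST value. Mean levels were 94.7 ± 27.5 and 2.11 ± 0.985 TPM (SD, n = 4 each), a ratio of 44.9. Csf3r was higher in PKCd libraries, at a log2 fold change of 5.71 ± 0.62 SE (edgeR adjusted p 0.00484), the 3rd smallest p of all tested genes. Its call held in all 8 fits that left out 1 library (adjusted p 0.0117 to 0.0335). SST levels rested on 10.1 to 52.4 estimated counts per library, against 264 to 4163 in PKCd libraries. These totals are not whole numbers, so reads may have been divided with transcripts of other genes, and the low SST level is uncertain.

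The GM-CSF receptor chains did not follow each other. Csf2rb, the signalling beta chain, stood at 5.70, 12.1, 9.72 and 4.57 TPM in PKCd 1 to 4, and at 0.332, 0.239, 0.695 and 0.563 TPM in SST 1 to 4. All PKCd libraries lay above all SST libraries, and the means of 8.03 ± 3.52 and 0.457 ± 0.209 TPM (SD, n = 4 each) differed 17.6-fold. The SST values rested on 3 to 17.0 estimated counts, and the log2 fold change of 4.25 ± 1.52 SE did not pass (edgeR adjusted p 0.503; DESeq2 adjusted p 0.00109). Csf2rb2 is a near-identical copy, and reads may have been divided between the 2 genes, so both levels are uncertain. Csf2rb2 stood at 1.35 to 7.86 TPM in PKCd and at 0 to 0.319 TPM in SST libraries.

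Csf2ra, the ligand-binding alpha chain, stood at 25.1, 47.5, 1.05 and 103.7 TPM in PKCd 1 to 4, and at 0.431, 40.5, 23.1 and 13.7 TPM in SST 1 to 4. The groups overlapped across nearly their whole range, with PKCd 3 on 1.00 estimated count and SST 1 on 8.00 estimated counts. Totals such as 495.6 in PKCd 1 and 613.8 in SST 2 are not whole numbers. Reads may thus have been divided with transcripts of other genes, and the Csf2ra levels are uncertain. The log2 fold change was 1.36 ± 1.39 SE (edgeR adjusted p 0.929), and it turned negative (-0.28) without PKCd 4. The libraries near the floor for Csf2ra were the same as for Csf1. Over the 8 libraries the Pearson r of Csf1 and Csf2ra was 0.957 on log2(CPM + 1), chosen after the values were seen, and without PKCd 3 and SST 1 it was 0.688 over 6 libraries. These points share library and depth, and the relation rests in good part on those low libraries.

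**Figure D1:**
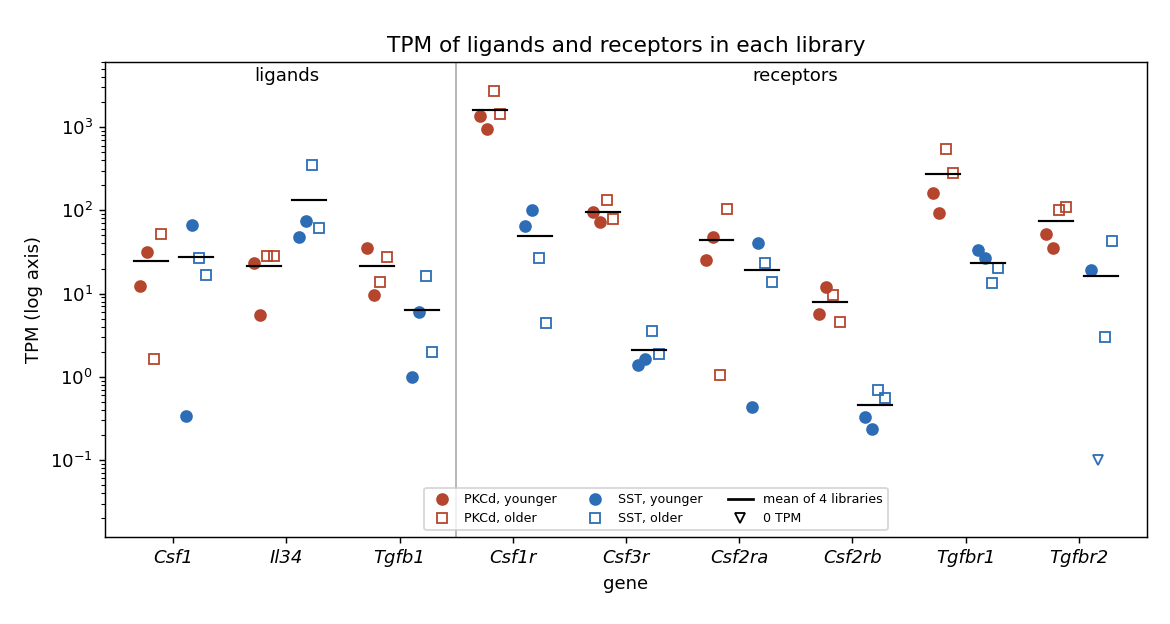
TPM of the 3 ligands and 6 receptors in each of 8 libraries on a log axis; points are libraries (filled, younger mice; open, older mice), bars are means of 4, and the triangle marks 0 TPM. Csf1r, Csf3r, Csf2rb and Tgfbr1 show no overlap with PKCd above SST, and Il34 none with SST above PKCd.

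Tgfbr1 stood apart between the groups, and Tgfbr2, its partner, did not. Tgfbr1, the type I kinase, stood at 160.0, 92.5, 553 and 279 TPM in PKCd 1 to 4, and at 33.3, 26.5, 13.5 and 20.5 TPM in SST 1 to 4. The lowest PKCd library lay above the highest SST library. Mean levels were 271 ± 203 and 23.5 ± 8.44 TPM (SD, n = 4 each), a ratio of 11.6. The log2 fold change of 3.31 ± 0.70 SE did not pass in edgeR (adjusted p 0.106). It passed in 4 of 21 alternatives and in none of the 8 fits that left out 1 library (adjusted p 0.0577 to 0.380). Those 4 were the fits with no filter (adjusted p 1.975e-05), in DESeq2 (4.357e-05), in limma on log2(TPM + 1) (0.0233) and with counts thinned to the shallowest library (0.0309).

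Tgfbr2, the type II receptor that binds the ligand, stood at 52.1, 35.6, 100.03 and 109 TPM in PKCd 1 to 4, and at 19.1, 0, 3.04 and 42.4 TPM in SST 1 to 4. SST 4 lay above PKCd 2, and SST 2 had no Tgfbr2 count among 16009560, which allows up to 0.187 CPM. By contrast SST 1, of the same age class, held 968 estimated counts. The log2 fold change was 2.01 ± 1.31 SE (edgeR adjusted p 0.861). Over 21 alternatives it ranged from 1.61 (without SST 3) to 4.99 (limma-voom) and passed in none, with adjusted p from 0.180 upwards.

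Across the 9 genes, 2 were higher in PKCd libraries by edgeR (Csf1r and Csf3r) and 0 were lower. Of all tested genes 0.282% were called higher and 0% lower. An unadjusted p under 0.05 was found for 5 of the 9 genes and for 756 of all tested genes. By DESeq2, 4 members were called higher (Csf1r, Csf3r, Csf2rb and Tgfbr1), against 3.2% of all tested genes, and 1 lower (Il34), against 0.812%. By plain separation of TPM, 4 members lay wholly higher in PKCd libraries, against 3.88% of tested genes. The median log2 fold change of the members was 2.09, and that of all tested genes was -0.08.

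**Figure D2:**
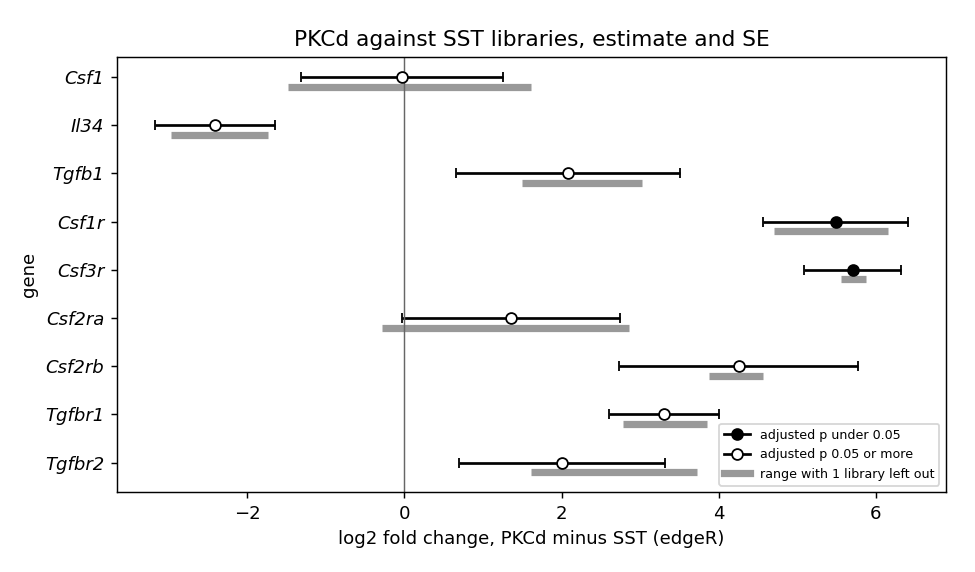
Log2 fold change of each gene, PKCd minus SST, from edgeR on all 8 libraries, with its SE; filled points have an adjusted p under 0.05 and grey bars span the estimates with 1 library left out. Csf3r has the narrowest grey bar, and those of Csf1 and Csf2ra cross 0.

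Set beside each other, receptors outweighed ligands in every PKCd library and not in every SST library. The 6 receptors made up 96.0%, 96.3%, 98.8% and 94.9% of the summed TPM of the 9 genes in PKCd 1 to 4, and 71.0%, 53.5%, 15.2% and 51.0% in SST 1 to 4. All PKCd shares lay above all SST shares, and SST 3 was the 1 library in which ligands exceeded receptors. Means were 96.5% ± 1.63 and 47.7% ± 23.4 (SD, n = 4 each). Csf1r alone did not make this separation: without it, receptors still held 82.8% to 94.8% in PKCd and 9.999% to 52.8% in SST libraries.

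Summed receptor TPM was 1691, 1220, 3483 and 2017 in PKCd 1 to 4, against 119.6, 169, 70.7 and 83.5 in SST 1 to 4. Summed ligand TPM was 70.5, 47.0, 43.4 and 108 in PKCd 1 to 4, against 48.8, 147, 395 and 80.2 in SST 1 to 4. The receptor sums did not overlap between groups and the ligand sums did.

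**Figure D3:**
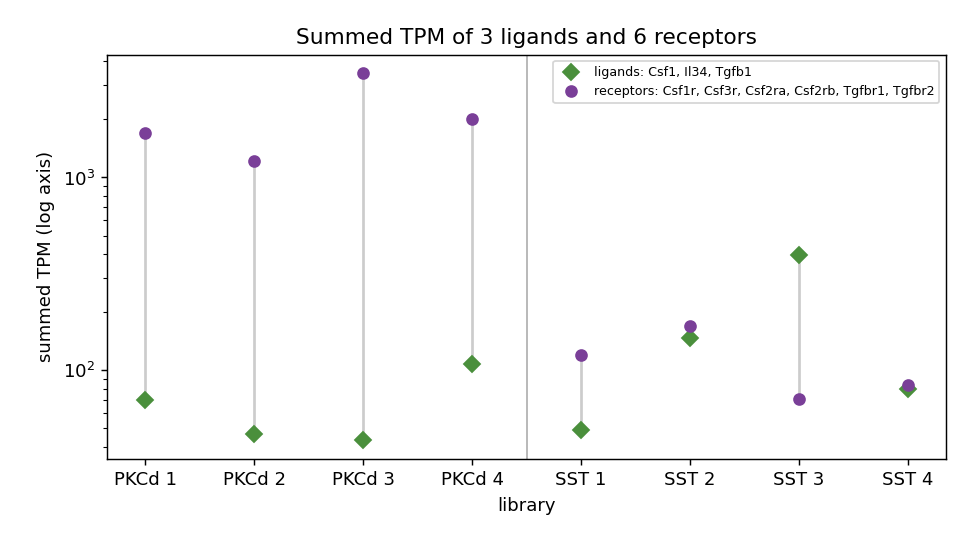
Summed TPM of the 3 ligand genes (diamonds) and the 6 receptor genes (circles) in each library on a log axis, with a line joining the pair. The gap is wide in all 4 PKCd libraries, small in SST 2 and SST 4, and turned over in SST 3.

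For the CSF1R axis alone, Csf1r TPM per TPM of its ligands (Csf1 plus Il34) was 37.9, 25.8, 90.5 and 17.9 in PKCd 1 to 4. The same ratio was 1.36, 0.711, 0.0706 and 0.0567 in SST 1 to 4, so the ligands exceeded the receptor in 3 of the 4 SST libraries. Il34 made up 53.1% to 99.3% of the TPM of Csf1 plus Il34 in SST libraries and 14.7% to 94.5% in PKCd libraries. These shares overlapped, with SST 1 the highest and PKCd 2 the lowest.

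For the TGF-beta axis, Tgfbr1 TPM per TPM of Tgfb1 was 4.59, 9.58, 40.4 and 10.1 in PKCd 1 to 4, and 33.8, 4.43, 0.837 and 10.3 in SST 1 to 4. These ratios overlapped: SST 2 and SST 3 lay below every PKCd library, SST 1 and SST 4 each lay above 3 of them, and PKCd 3 lay above all SST libraries. Tgfbr2 TPM per TPM of Tgfb1 was 1.49, 3.68, 7.30 and 3.93 in PKCd 1 to 4. It was 19.4, 0, 0.188 and 21.3 in SST 1 to 4, so SST libraries lay on both sides of the PKCd range. The SST 4 ratio rested on 6 Tgfb1 counts.

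Ranked by mean TPM, the order in PKCd libraries was Csf1r, Tgfbr1, Csf3r, Tgfbr2, Csf2ra, Csf1, Tgfb1, Il34 and Csf2rb. Only Csf1r lay above the next gene without overlap over the 4 libraries. In SST libraries the order was Il34, Csf1r, Csf1, Tgfbr1, Csf2ra, Tgfbr2, Tgfb1, Csf3r and Csf2rb. There, only Csf3r lay above the next gene, Csf2rb, without overlap, and no other neighbours could be told apart by their ranges. Il34 thus went from 8th to 1st and Csf3r from 3rd to 8th, as a description of means.

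No member passed between age classes. Older minus younger, the log2 fold changes ran from -1.02 ± 0.84 SE (Csf1r) to 1.14 ± 0.74 SE (Il34), and 0 of 9 passed in edgeR, with 0 at an unadjusted p under 0.05 and 0 in DESeq2. Of all tested genes 0.053% were called, and 946 had an unadjusted p under 0.05. TPM of 7.68% of tested genes did not overlap between age classes, and of no member.

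The population difference of each gene was also compared between age classes. Csf1r had a log2 fold change of 3.82 ± 0.96 SE in the younger and 7.18 ± 1.06 SE in the older mice, and Tgfbr1 1.99 ± 0.86 SE and 4.64 ± 0.64 SE. Csf3r had 5.86 ± 1.10 SE and 5.52 ± 0.77 SE, and Il34 -2.06 ± 1.52 SE and -2.74 ± 0.94 SE. With 2 libraries a group, 0 genes of all passed in either age class in edgeR, and 734 (younger) and 850 (older) had an unadjusted p under 0.05. The interaction had an unadjusted p of 0.0138 for Csf1r and 0.0218 for Tgfbr1 and passed for no gene after adjustment (0% of all tested genes, 467 unadjusted; DESeq2 called 77 genes and none of the 9).

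Summed TPM of microglial markers was higher in every PKCd library than in any SST library, as were 4 of the 6 receptors (Csf1r, Csf3r, Csf2rb and Tgfbr1) and not Csf2ra and Tgfbr2. The members were therefore also set per 1000 TPM of the 12 microglial markers in the same library. Csf3r stood at 2.54, 2.45, 2.58 and 2.44 on this scale in PKCd 1 to 4 and at 0.213, 0.982, 2.35 and 3.77 in SST 1 to 4. The 4 PKCd values lay at 2.503 ± 0.0693 (SD, n = 4), and the SST values lay on both sides of them. Csf1r stood at 33.0 to 52.2 in PKCd and 8.90 to 60.6 in SST libraries, and Tgfbr1 at 3.17 to 10.8 and 5.16 to 41.2, both overlapping. Il34 groups did not overlap, at 0.189 to 0.888 in PKCd and 7.35 to 233 in SST libraries. Since Il34 TPM was wholly higher and the marker sum wholly lower in SST libraries, the Il34 ratio had to separate and adds no support. On this scale, none of the 6 receptors separated the populations. The part of microglial RNA in the receptor differences was not tested.

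**Figure D4:**
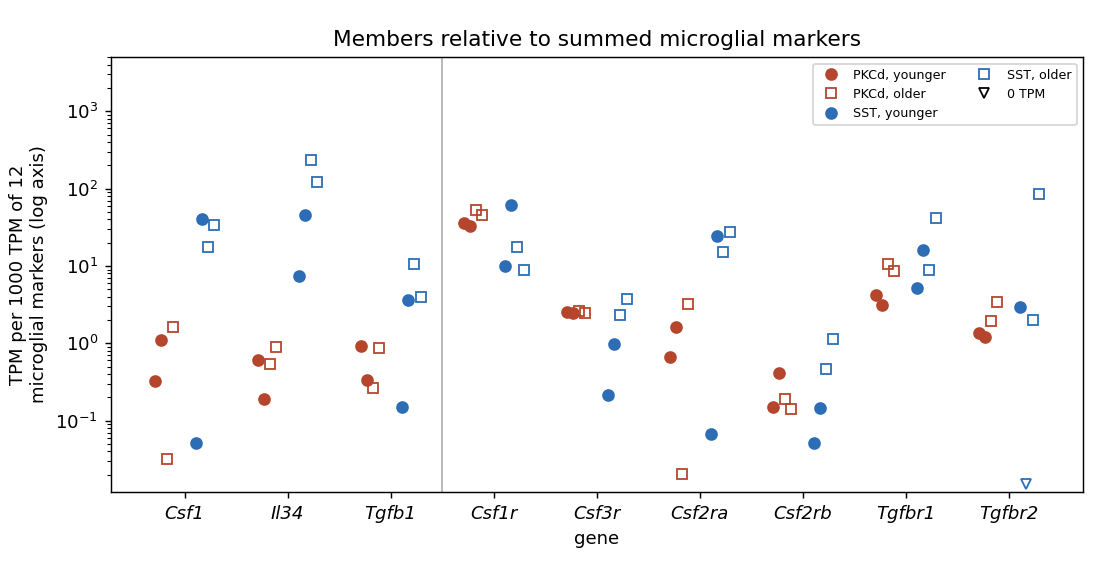
TPM of each gene per 1000 TPM of 12 summed microglial markers, by library on a log axis; filled points are younger and open points older mice, and the triangle marks 0 TPM. The Csf3r values of the 4 PKCd libraries coincide near 2.503, and receptor groups overlap. Il34 groups do not, which their higher TPM and the lower marker sums of SST libraries fixed in advance.

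Other myeloid cells also carry Csf3r and Csf2rb. Summed TPM of 6 border macrophage markers was 15.9 to 436 in PKCd and 0.111 to 3.61 in SST libraries, the high value in PKCd 2, and these sums did not overlap. Only 3 of the 6 markers passed the filter on low counts. Of these, Pf4 groups did not overlap (8 to 1105 counts in PKCd, 0 in each SST library), while those of Mrc1 and Cd163 did. With 0 counts in SST libraries, Pf4 could pass the filter only by being present in all PKCd libraries. Its separation was thus fixed in advance and adds no support. Of all tested genes 3.88% lay wholly higher in PKCd libraries. Lyve1 was at 0 in 7 libraries, and the part of border macrophages in the receptor differences was not tested. Summed TPM of 7 neutrophil and monocyte markers was 14.5, 0.390, 1.04 and 5.81 in PKCd 1 to 4 and 0.315, 0, 195 and 72.3 in SST 1 to 4. Of these, S100a8 was at 0 in 7 libraries, and Retnlg and Ngp in all 8. Of the 7 markers 0 passed the filter on low counts, so the higher sums in SST 3 and SST 4 were not tested for any gene. The part of neutrophils and monocytes in the Csf3r difference was not tested. For the ligand side, summed mural cell markers were 101.7 to 3741 TPM in PKCd and 2145 to 10623 TPM in SST libraries, and summed astrocyte markers were 458 to 4100 and 3278 to 7210 TPM. Both ranges overlapped and both were highest in SST 3, the library with the highest Il34. The mural sum did not follow Il34 in SST 1 and SST 2, at 8775 and 2145 TPM beside Il34 of 47.5 and 74.7 TPM. Summed neuron markers were 125, 556, 167 and 142 TPM in SST 1 to 4, within or near the PKCd range of 121 to 576 TPM. The part of any of these cell types in the Il34 difference was not tested.

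A list of 27 further ligands, receptor chains and signalling genes of the CSF receptors was followed, of which 20 were tested, and their median log2 fold change was 3.35 against -0.08 over all tested genes. TPM of 11 of the 20 lay wholly higher in PKCd libraries, against 3.88% of tested genes. The main test, edgeR, called 1 of the 20 higher and 0 lower, against 0.282% of tested genes called higher, and DESeq2 called 11 higher and 0 lower, against 3.2%. Of the 12 microglial markers, 11 also lay wholly higher in PKCd libraries and edgeR called 3 higher, with a median log2 fold change of 4.11; their part in the values of the list was not tested. The ligands of the other receptors were nearly unread: Csf3 had 0 counts in all 8 libraries, Csf2 had 0 to 15 counts, and Il3 had 0 to 2 counts.

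Around TGF-beta, no listed gene passed in edgeR. Of 21 ligands and latency or activation genes 12 were tested, with 0 called in edgeR or DESeq2, 0 at an unadjusted p under 0.05 in edgeR, and a median log2 fold change of -0.24. Nrros, which anchors latent TGF-beta 1 on microglia, was the 1 of the 12 whose groups did not overlap. Of all tested genes 3.88% lay wholly higher and 3.05% wholly lower in PKCd libraries, so this count does not set the list apart. Nrros stood at 34.8, 17.7, 96.3 and 73.8 TPM in PKCd 1 to 4 and 11.8, 0, 0.413 and 8.59 TPM in SST 1 to 4. Its log2 fold change was 2.99 ± 1.56 SE (edgeR adjusted p 0.801). Itgb1, an integrin beta chain, had 209 ± 200.4 against 170.2 ± 118 TPM, and Bmp4, a bone morphogenetic protein, 12.5 ± 21.0 against 64.2 ± 81.8 TPM (SD, n = 4 each), both overlapping.

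Of 12 other TGF-beta family receptors 10 were tested, with 0 called in edgeR or DESeq2, 0 at an unadjusted p under 0.05 in edgeR, and a median log2 fold change of 0.20. Eng, a co-receptor of endothelial cells, had 90.0 ± 75.4 against 34.9 ± 41.7 TPM, and Acvrl1, a type I receptor of the same cells, 50.5 ± 52.0 against 11.8 ± 12.6 TPM. Acvr2b, an activin receptor, had 26.9 ± 26.3 against 12.8 ± 9.03 TPM. All 3 overlapped between groups. Of 17 SMADs and their regulators 16 were tested, with 0 called in edgeR, 2 at an unadjusted p under 0.05, 2 higher in DESeq2 (Pmepa1 and Skil, against 3.2% of all tested genes), and a median log2 fold change of 0.99. Pmepa1, an inhibitor of SMAD signalling chosen here after its values were seen, had 37.2 ± 31.1 against 4.95 ± 2.16 TPM and was the 1 gene of the 16 that lay wholly higher in PKCd libraries, against 3.88% of all tested genes. Smad1, a transducer of BMP signals, had 45.9 ± 23.0 against 14.2 ± 5.89 TPM. Ski, a co-repressor of SMADs, had 33.9 ± 15.4 against 29.6 ± 23.9 TPM, and Tgif1, another co-repressor, 18.8 ± 15.6 against 24.97 ± 7.96 TPM (SD, n = 4 each throughout). The groups of Smad1, Ski and Tgif1 overlapped.

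The transcripts behind the gene sums differed between libraries for 4 members with more than 1 RefSeq transcript. Csf1 is shown by the junction that tells its forms apart, since the long form of exon 6 encodes the stretch carried by the secreted proteoglycan and glycoprotein forms, and the short form leaves out most of it. Both junctions lie on the minus strand and join exon 5 to exon 6, which spans chr3:107748154-107749169 in the long and chr3:107748154-107748284 in the short form (GENCODE, GRCm38). Capitals mark the first 15 bases of exon 6.
Csf1 long exon 6: agtgctctagccgagATGTGGTGACCAAGC
Csf1 short exon 6: agtgctctagccgagGCCATGTGGAGCAGC
The exon is 1016 bases in the long and 131 bases in the short form, all of it coding in both.

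Of the Csf1 counts, the 3291-base transcript with the short exon 6 took 107 of 504 in PKCd 1, 731 of 731 in PKCd 2, 131 of 142 in PKCd 4, 1874 of 1874 in SST 2 and 72.5 of 86 in SST 4. The 4176-base transcript with the long exon 6 took 327 of 504 in PKCd 1 (64.9%, 95% exact binomial interval 60.5% to 69.0%) and 79.5 of 91 in SST 3 (87.3%, 78.1% to 93.0%), and none in PKCd 2 and SST 2. Another transcript, of 2324 bases, took 70.2 of 504 in PKCd 1, 10.8 of 142 in PKCd 4 and 11.5 of 91 in SST 3. It also took 2 of 2 in PKCd 3 and 6.85 of 9 in SST 1, and its form of exon 6 was not examined. The main form thus changed from library to library within both groups, and not by population.

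Tgfbr2 has a form with 1 more coding exon of 75 bases, at chr9:116158271-116158345 on the minus strand (GENCODE, GRCm38), which lengthens the part of the receptor outside the cell. It is shown because reads were divided between the 2 forms by its presence.
Tgfbr2 extra exon: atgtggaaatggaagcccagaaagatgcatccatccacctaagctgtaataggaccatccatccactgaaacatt
The form with this exon took 811 of 2831 estimated counts in PKCd 1 (28.7%, 27.0% to 30.4%) and 104 of 451 in PKCd 4 (23.1%, 19.2% to 27.2%). It took none in PKCd 2, in PKCd 3 or in any SST library with Tgfbr2 counts. In SST 1, with 968 counts, that allows a share of at most 0.380%, and in SST 3, with 13 counts, of at most 24.7%.

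For Csf3r the 3907-base transcript took 2791 of 4163 estimated counts in PKCd 1, 847 of 1873 in PKCd 2, and all of 285 in PKCd 3 and of 264 in PKCd 4. In SST libraries it took none, and all 52.4, 50.4, 11.4 and 10.1 estimated counts went to the 3583-base transcript. Shares of transcripts are the authors' tool's division of reads and may be unstable at counts this low, which the intervals do not cover. The upper limit for the 3907-base form was 6.85% in SST 1 and 30.8% in SST 4. The PKCd libraries thus differed among themselves as well, since PKCd 3 and PKCd 4 had none of the 3583-base form. For Il34 the 1741-base transcript took 65.7% to 100% of the counts in PKCd and 93.6% to 100% in SST libraries.

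**Figure D5:**
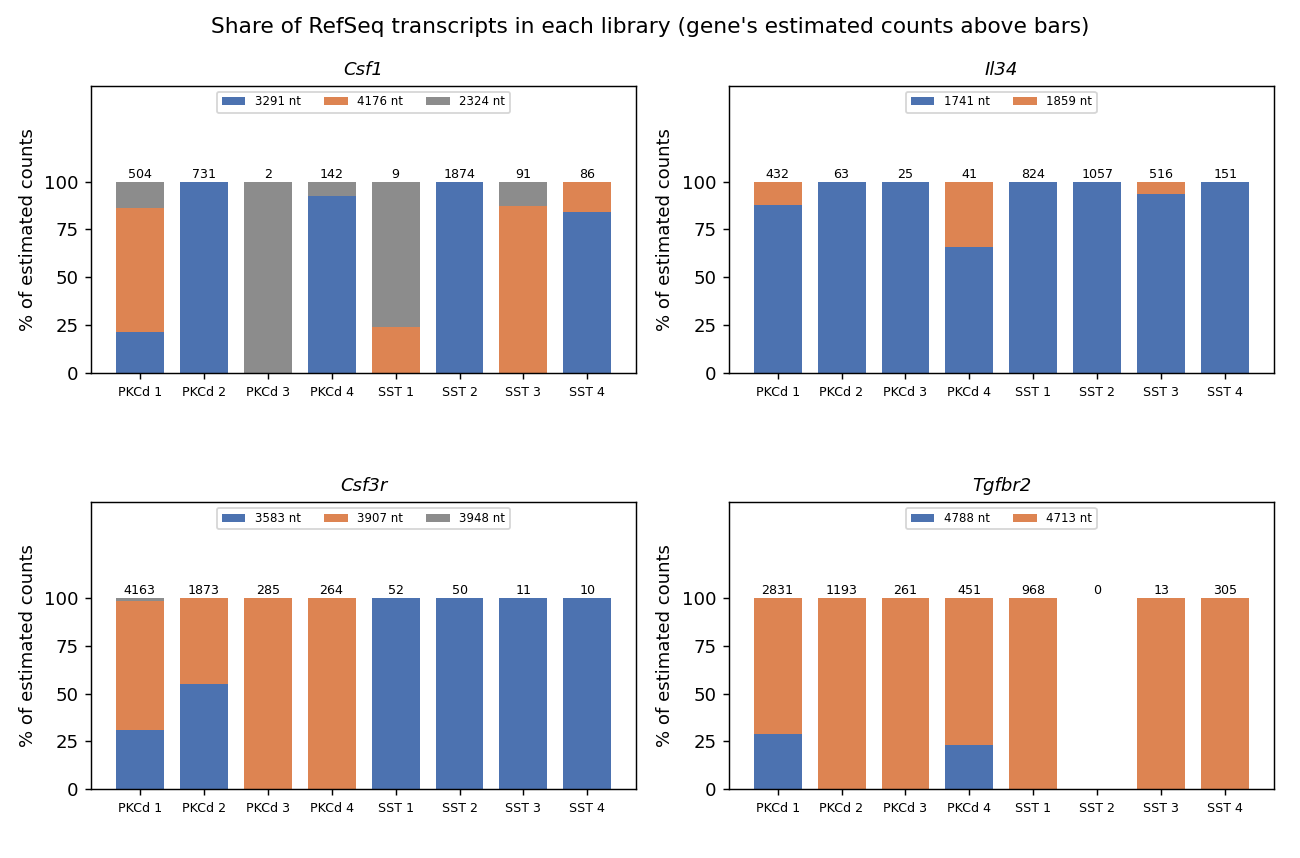
Share of each gene's estimated counts in each RefSeq transcript, named by length, with the gene's estimated counts above each bar. All Csf3r counts of SST libraries lie in the 3583-nt transcript, and the main Csf1 transcript differs between libraries of 1 group.

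Il34 and Csf2rb had no promoter window in the RefSeq table of GRCm38.p6, and Csf1r was left out of the search. Windows (250 bases before to 50 after a start) were taken for the other 6 of the 9 genes. They were searched on both strands for GAGGAA, a core bound by the myeloid factor PU.1 (gene Spi1), which stood at 244 ± 75.8 TPM (SD, n = 4) in PKCd libraries and 32.9 ± 25.6 TPM (SD, n = 4) in SST libraries (edgeR adjusted p 0.298). The letters occurred in 4 of the 6 genes and in 31.3% of all genes with a window, or 28.3% of all windows. Csf3r is shown as the member with the steadiest difference, at chr4:126024409-126024708 on the plus strand, and Csf2ra as a receptor without one, at chr19:61228369-61228668 on the minus strand. The Csf3r window lies inside the gene's span, which begins at 126023441, and no window at that outer start was searched. Capitals mark GAGGAA.
Csf3r promoter: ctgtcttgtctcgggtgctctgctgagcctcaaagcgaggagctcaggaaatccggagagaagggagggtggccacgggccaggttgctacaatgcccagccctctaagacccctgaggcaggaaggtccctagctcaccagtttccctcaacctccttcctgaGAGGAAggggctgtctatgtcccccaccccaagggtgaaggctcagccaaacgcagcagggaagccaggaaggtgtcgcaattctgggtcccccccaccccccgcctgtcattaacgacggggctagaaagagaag
Csf2ra promoter: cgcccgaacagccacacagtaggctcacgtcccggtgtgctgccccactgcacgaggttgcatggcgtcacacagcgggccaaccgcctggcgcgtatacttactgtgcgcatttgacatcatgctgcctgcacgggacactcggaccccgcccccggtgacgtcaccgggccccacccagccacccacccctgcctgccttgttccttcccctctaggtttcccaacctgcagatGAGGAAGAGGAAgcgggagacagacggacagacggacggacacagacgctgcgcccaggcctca
Csf3r held 1 match and Csf2ra 2 matches side by side, while the called and the uncalled gene both had the letters. Windows with 2 or more matches made up 4.82% of all. Tgfbr2 held 1 match, Tgfbr1 1 match in 1 of its 2 windows, and Csf1 and Tgfb1 none.

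The genes most like Csf1r over the 8 libraries, by Pearson r of log2(CPM + 1), were Cx3cr1 (0.994), Selplg (0.986), C1qc (0.984), Cln3 (0.982) and Vsir (0.979). Of the other members, Tgfbr1 (0.910), Csf3r (0.904) and Csf2rb (0.846) came closest to Csf1r, and Csf2ra (0.0932) and Csf1 (-0.11) showed no likeness to it. The genes most like Il34 were Igf2 (0.973), Prelid3a (0.927), Nr1d2 (0.920), Pym1 (0.914) and Nub1 (0.911), and its r with Csf1r was -0.71. All of these points share library, depth and population, so r describes the 8 libraries and no more.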

How the data were processed

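RNA was sequenced from 8 sorted libraries (4 PKCd, 4 SST), prepared with a SMARTer kit for Illumina, per the labels' protocols. The deposited files hold kallisto output, in which the authors give each transcript an estimated count that need not be whole and is not normalized, per the file headers. Beside it stands the authors' TPM, which is relative to length and to the library total and so keeps no depth, per the file headers. Tools named in the submitters' processing notes are BWA 0.7.12 and kallisto 0.43.0, with the mm10 build. Of 30404 targets, RefSeq (GRCm38.p6) named 30080 and GENCODE 147 more. Counts of each gene's transcripts were added up, then rounded for the tests. The main test was edgeR 4.0.16 in R 4.3.3 (quasi-likelihood, TMM, default filter by population, terms for population and age class), with p-values adjusted by Benjamini-Hochberg over all 11328 tested genes and a threshold of 0.05. Alternatives used DESeq2 1.42.0 and limma 3.58.1. The tests were also run on simulated data. The outcome is not given here, so nothing is claimed from it on missed or false calls. The 4 samples of a group came from separate mice, so p-values measure the spread of mice, sorting and amplification together.

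The members and gene lists were chosen with earlier results of these data known. Named were all 9 members and, of each pathway list, its called genes or else the 3 with the highest mean TPM. The 5 genes most like Csf1r and Il34 were named too. Others that are named (Csf2rb2, Spi1, Csf2, Csf3, Il3, Pmepa1, Skil, Prkcd, Sst) were added after values were seen. Marker genes were named where a result turned on them. Marker lists covered microglia, border macrophages, neutrophils and monocytes, astrocytes, oligodendrocytes, their precursors, endothelial and mural cells, and neurons. Summed oligodendrocyte markers were 11707 to 29722 TPM in PKCd and 11552 to 60655 TPM in SST libraries, those of precursors 68.8 to 643 and 97.1 to 2469, and endothelial markers 316 to 5039 and 146 to 4487. Isoform counts were divided by the authors' tool. An edgeR result among the CSF receptor partners is not reported here.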

Additional observations from a re-analysis of the deposited data

Results flagged for a closer look

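In a group of 4 libraries, 1 library was singled out where its gap to the nearest other took up more of the group's range than Dixon's 95% critical value. Of 62 such groups of member values and ratios 10 met this. Chance alone meets it in about 1 of 20 if values are normally distributed and groups are independent. Here TPM and ratios were not transformed and many ratios share the same genes. That rate need not hold, so 10 of 62 is not read as an excess. Il34 in SST 3 stood at 352.2 TPM, against 47.5 to 74.7 in the other SST libraries. PKCd 3 was singled out by receptors per ligands (80.31 against 18.6 to 26.0), by the receptor share without Csf1r (94.84% against 82.8% to 84.7%), by Tgfbr1 per Tgfb1 (40.42 against 4.59 to 10.1) and by Csf2rb per Csf2ra (9.261 against 0.0441 to 0.256), the last resting on 1.00 Csf2ra count. Csf2rb per Csf2ra in SST 1 was 0.7692, against 0.00589 to 0.0411. Csf1r held 67.86% of the 9 genes' TPM in PKCd 4, against 75.8% to 76.7%. Per 1000 TPM of microglial markers, Csf1r stood at 60.62 in SST 2 (others 8.90 to 17.7), Csf2rb at 0.4163 in PKCd 2 (others 0.143 to 0.189) and Tgfbr2 at 85.06 in SST 4 (others 0 to 2.95).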

How the results depend on the processing

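Csf3r stayed higher and past the threshold in 19 of 21 alternatives between populations, and Csf1r in 11; neither passed within a single age class. The number of members called was 5 in DESeq2, 0 at 8 to 9 weeks, 0 at 18 to 20 weeks, and 1 to 2 with 1 library left out. The number of genes called between populations, 32, became 269 with no filter, 454 in DESeq2, 147 and 68 in limma on log2(TPM + 1) and log2(TPM + 0.1), 61 after thinning (an alternative chosen after seeing the data), 0 in each age class alone, and 10 to 52 with 1 library left out. Between age classes, 6 became 2 with RLE size factors, 249 with no filter, 2 with a 10 CPM filter, 555 in DESeq2, 0 in limma-voom, 53 and 12 in limma on TPM, 14 after thinning and 0 to 2 with 1 library left out. The interaction called 25 genes with no filter and 77 in DESeq2. The same replicate number in both groups names different mice. Deviations of same-numbered libraries from their population means had r of 0.0910, 0.128, 0.0720 and 0.199, which include the age class they share. Within age class r was -0.0148, -0.0148, -0.00592 and -0.00592, so the numbers were not taken as pairs. With a replicate block 1 member (Csf3r) and 24 genes were called, and Csf1r had an adjusted p of 0.0611. Not every library correlated best with its own number.

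Signs turned only in differences that did not pass. Between populations Csf1 had log2 fold changes of 1.27 in limma-voom, 0.12 and 0.37 in limma on log2(TPM + 1) and log2(TPM + 0.1), 0.41 with the replicate block and 0.13 at 18 to 20 weeks. With 1 library left out, Csf1 ranged from -1.48 to 1.61 and Csf2ra from -0.28 to 2.86. Between age classes Csf1 had 0.38 in limma-voom and 0.20 and 0.46 in limma on TPM, Csf1r 0.081 in limma-voom and 0.56 without the population term, Csf2ra -0.090 in limma-voom, and Csf2rb -0.48 without the population term. With 1 library left out, the age difference ranged from -1.61 to 1.46 for Csf1, -1.50 to 1.63 for Csf2ra, -0.11 to 0.56 for Csf2rb, -0.47 to 1.07 for Tgfb1, -0.25 to 0.72 for Tgfbr1 and -0.018 to 2.65 for Tgfbr2. The cause was not tested. Low counts limit several values: Csf1 rested on 2 and 9 counts and Csf2ra on 1.00 and 8.00 in PKCd 3 and SST 1, Csf2rb on 3 to 17.0 and Csf3r on 10.1 to 52.4 in SST libraries, Tgfbr2 on 0 and 13 in SST 2 and SST 3, and Tgfb1 on 6 in SST 4. Where leaving out a library leaves 1 of its group and age class, that library is assumed to vary like the others.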
